A study of Mus musculus with 9 samples.

Results

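The Clec genes encode proteins with a C-type lectin domain, and 33 of them were described here in mouse peritoneal macrophages at rest and after interferon. They were all genes whose array symbol was Clec, a number and an optional letter or suffix, and that had a probe set (a group of array probes read as 1 value) carrying that symbol alone. They made up 33 of the 19752 genes with such a probe set, on 34 probe sets. Clec4g had 2, and the one with the higher mean stood for it. The rule used names, not measured values.

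Male C57BL/6 mice of 6 weeks of age were left untreated (n = 3 arrays) or received a subcutaneous injection of 10000 U of recombinant interferon alpha (IFNa, n = 4) or 8000 U of recombinant interferon gamma (IFNg, n = 2). The injected mice were killed after 2 h. Macrophages were double sorted from the peritoneal lavage by flow cytometry, and their RNA was read on Affymetrix expression arrays. The sort label of the injected groups was F4/80+ ICAM2+ and that of the untreated group F4/80+ alone, while the design text gives F4/80+ ICAM+ cells. No group was injected with vehicle, so injection, and any difference in sorting, cannot be told apart from the interferon in comparisons with untreated. The labels do not say whether each array came from 1 mouse or a pool, so p-values measure the spread between these samples.

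C-type lectin receptors bind sugars or other ligands at the cell surface, and many sit on myeloid cells. Some, such as Dectin-1 and Mincle, sense fungi and mycobacteria and signal through the kinase Syk and the adaptor Card9, directly or through the chain Fcer1g. Others carry inhibitory motifs, take up glycoproteins, or, as in the Clec2 family, are themselves ligands that receptors of natural killer (NK) cells read. Many of these genes lie in 1 region called the NK gene complex, and 25 of the 33 members were on chromosome 6 in the RefSeq annotation.

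Probe set intensity depends on the probes as well as on the transcript, so brightness is not an order of expression between genes. On all 3 untreated arrays, 7 members were above the upper quartile of their array and another 8 above its median. A further 12 were below the median and 4 (Clec14a, Clec2e, Clec4b1 and Clec4b2) below the lower quartile, and 2 crossed these limits. The 7 above the upper quartile were Clec4e, Clec4d, Clec4a3, Clec7a, Clec4a1, Clec2d and Clec2i. The arrays' medians ran from 162.2 to 178.3 in intensity. Untreated replicate 1 and IFNa replicate 4 had a narrow intensity range, with a log2 ratio of upper to lower quartile of 2.27 and 2.16 against 2.68 to 3.03 on the other arrays. Untreated replicate 1 was the lowest untreated array for 16 of the 33 members, and untreated replicate 3, the array of widest range, for 14. IFNa replicate 4 was the lowest IFNa array for 9 members, and IFNa replicate 3 for 11. Values that the 2 narrow arrays turned or moved by over 1.5 times in the members given array by array are printed with and without them. Among the markers of large peritoneal macrophages, Adgre1 (F4/80) read 7782 to 9125 and Icam2 2489 to 3873 over the 9 arrays, and 8 of 9 listed markers were measured. Their summed intensity was 57670 to 60840 in untreated, 54730 to 60500 in IFNa and 58260 to 59110 in IFNg arrays. Of the 8, 1 was called lower and 0 higher after each interferon, and it was Gata6 (-1.05 ± 0.17, adjusted p = 0.00997, and -1.16 ± 0.21, adjusted p = 0.0242). Timd4 was higher on all treated arrays and did not pass (0.25 ± 0.11, adjusted p = 0.376, and 0.42 ± 0.13, adjusted p = 0.266). Garnl3 was lower on all treated arrays and did not pass either (limma, -0.42 ± 0.18, adjusted p = 0.389, and -0.50 ± 0.22, adjusted p = 0.594).

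The first question was which Clec genes change after each interferon. Clec2d rose after both, and it was the 1 member of 33 that passed the test (limma, adjusted p under 0.05 over all genes) in either comparison. After IFNa 1 member was higher and 0 lower, where 1.79% of all genes were called higher and 0.856% lower. After IFNg the counts were again 1 and 0, where the shares were 1.24% and 0.111%. At an unadjusted p under 0.05, 2 members were higher and 2 lower after IFNa, and 3 higher and 1 lower after IFNg. That is 12.1% of the members in each comparison, beside 11.9% of all genes after IFNa and 8.23% after IFNg. The members' median log2 difference was -0.04 after IFNa and -0.05 after IFNg, beside -0.02 and -0.06 over all genes, and 29 of 33 lay within 0.5 of 0 in each. Both comparisons use the same untreated arrays.

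**Figure D1:**
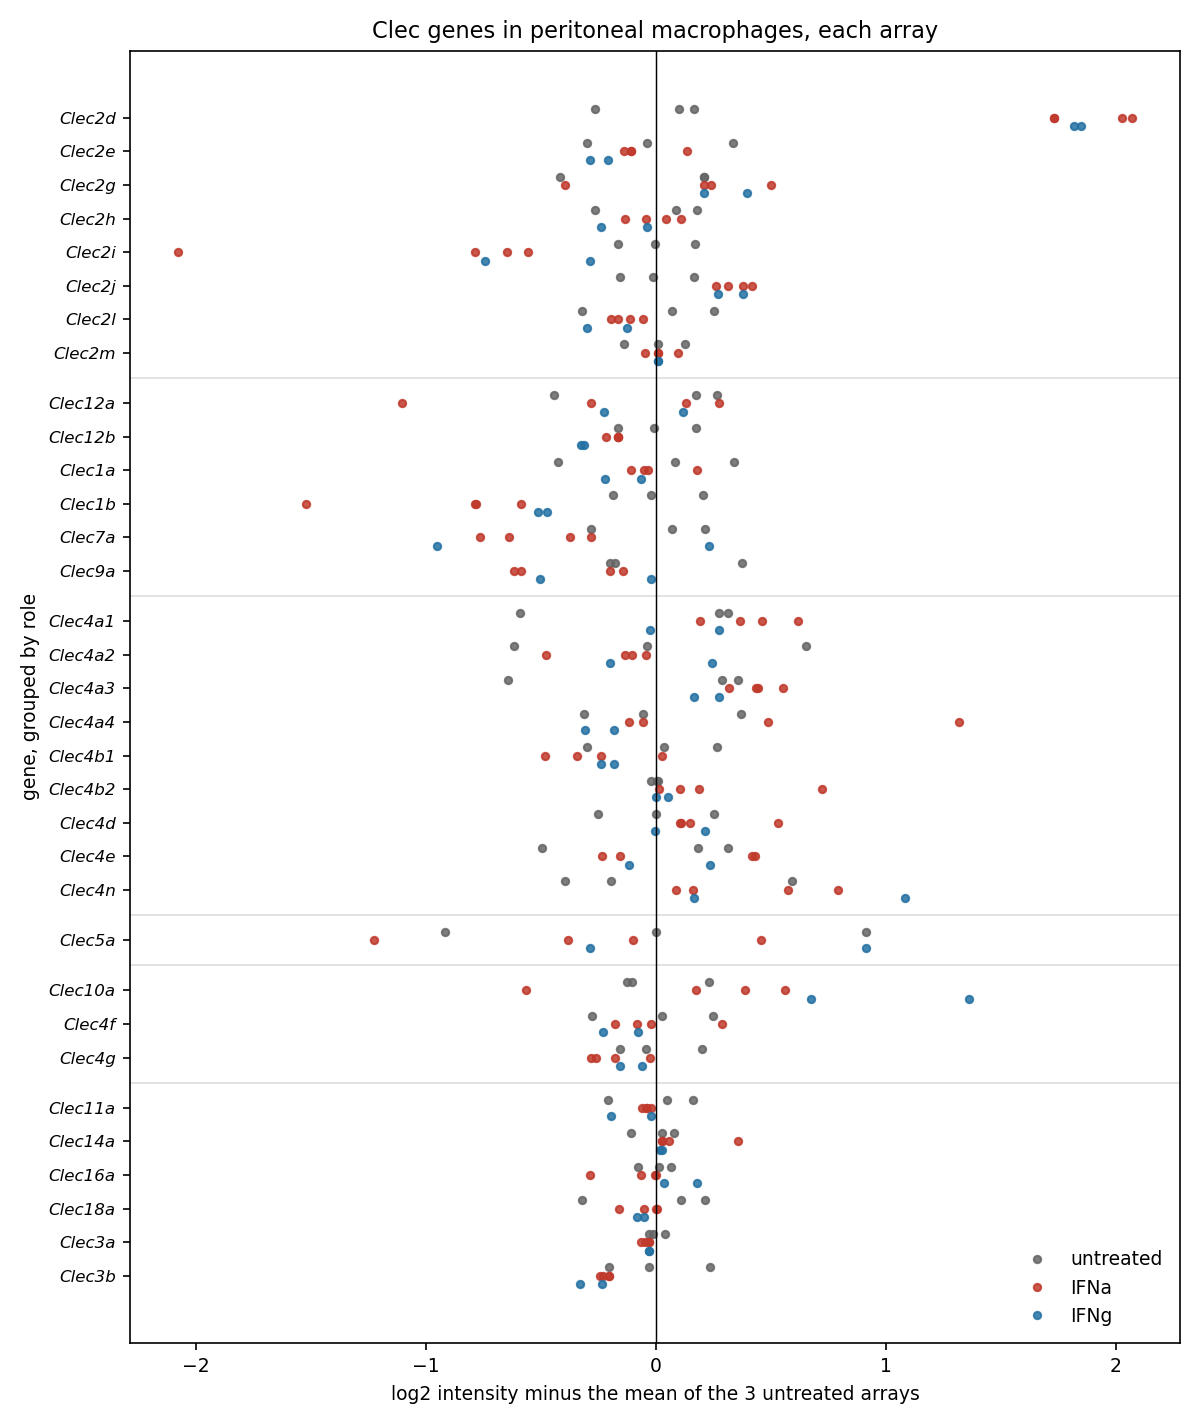
Each point is 1 array: the horizontal axis is its log2 intensity minus the mean of the 3 untreated arrays, and the vertical axis lists the 33 genes grouped by role. Clec2d is the gene whose 4 IFNa and 2 IFNg points stand far to the right of its 3 untreated points.

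Clec2d encodes Clr-b (OCIL), a surface protein that healthy cells show to the inhibitory NK receptor encoded by Klrb1b. Its intensity was 967, 1009 and 749 on the untreated arrays, 2989, 3781, 3667 and 2989 on the IFNa arrays, and 3240 and 3177 on the IFNg arrays. Every treated array was above every untreated array, by a wide margin. The increase was log2 1.89 ± 0.15 (SE, 3.70-fold, n = 4 against 3, 95% interval 1.56 to 2.22, adjusted p = 6.3e-05) after IFNa. It was 1.83 ± 0.17 (3.56-fold, n = 2 against 3, 1.44 to 2.22, adjusted p = 0.000612) after IFNg. In the sorted bulk RNA, a change in the share of cells that carry a transcript and a change in RNA per cell cannot be told apart. Without the 2 narrow arrays the values were 1.99 ± 0.15 and 1.88 ± 0.17. IFNa replicates 1 and 4 hold the same deposited value.

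The promoter of Clec2d is shown because the gene was higher after both interferons. That of Clec4b1 is shown because it holds the same motif although its probe set stayed dim. RefSeq sequence (GRCm38.p6) gave 29 promoter windows for 26 of the 33 members, each from 250 bases before to 50 bases after the start. The windows were searched on both strands for the core of the interferon-stimulated response element (GAAA, any 2 bases, GAAA), a sequence known from the promoters of interferon-induced genes, and for the core of the gamma-activated site (TTCNNNGAA), known from genes that respond to interferon gamma. The first was found in 3 of the 29 windows (Clec2d, Clec4b1 and Clec4d), against 3.44% of all 32851 promoters of that length. The second was found in 1 window (Clec4a2) and not in that of Clec2d, against 8.3% of promoters. The 250 bases before the start, on the + strand, run 5′ to 3′ with the response element core in capitals. In Clec2d (chr6:129180365-129180614) it spans 189 to 180 bases before the start on the gene's strand. In Clec4b1 (chr6:123049712-123049961) it spans 75 to 66 bases before the start and reads on the opposite strand.
Clec2d: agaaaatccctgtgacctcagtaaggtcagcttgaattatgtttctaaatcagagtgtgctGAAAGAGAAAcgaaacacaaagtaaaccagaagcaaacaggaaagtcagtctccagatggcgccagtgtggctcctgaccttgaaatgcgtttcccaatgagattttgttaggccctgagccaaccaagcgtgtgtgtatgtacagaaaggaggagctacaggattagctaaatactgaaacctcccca
Clec4b1: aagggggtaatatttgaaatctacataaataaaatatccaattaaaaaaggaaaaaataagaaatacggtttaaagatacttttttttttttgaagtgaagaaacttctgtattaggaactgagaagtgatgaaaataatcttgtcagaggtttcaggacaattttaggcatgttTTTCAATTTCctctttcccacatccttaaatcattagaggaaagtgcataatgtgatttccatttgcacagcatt

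Clec4b1 read 16.4 to 27.5 on the 9 arrays, differed by -0.26 after IFNa and -0.21 after IFNg, and did not pass. Clec4d holds the match at bases 1 to 10 of its transcribed part and did not pass either (values below). A letter match is a description of the sequence and says nothing of binding.

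Of the 8 Clec2 genes measured, Clec2d alone passed the test (1 higher and 0 lower after each interferon). Clec2i (Clr-g), a ligand of other NKR-P1 receptors, read 597, 668 and 753 on untreated, 388, 428, 456 and 159 on IFNa, and 400 and 549 on IFNg arrays. Every treated array was below every untreated array, and IFNa replicate 4, an array of narrow range, was lowest. The log2 difference was -1.02 ± 0.33 (adjusted p = 0.202) after IFNa and -0.52 ± 0.40 (adjusted p = 0.752) after IFNg, and neither passed. Without the 2 narrow arrays Clec2i was lower by -0.74 ± 0.15 after IFNa and passed (adjusted p = 0.0272), and it differed by -0.60 after IFNg (adjusted p = 0.137). Clec2j, a pseudogene in RefSeq, read 79.98 to 99.95 on untreated, 106.7 to 119.2 on IFNa and 107.4 to 115.9 on IFNg arrays (0.34 and 0.32, adjusted p = 0.206 and 0.565). The 6 Clec2 genes other than Clec2d and Clec2i lay between -0.13 and 0.34 after IFNa and between -0.25 and 0.32 after IFNg.

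The Klrb1 genes, the family that holds the receptors of Clec2 proteins, were dim in these cells. None of the 5 measured (Klrb1, Klrb1a, Klrb1b, Klrb1c and Klrb1f) passed in any comparison (limma), and 0 had an unadjusted p under 0.05. Klrb1b, the receptor for Clec2d, read 59.3 to 100.8 over the 9 arrays.

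Clec2d was followed on chromosome 6 by Cd69, the early activation marker, which also has a C-type lectin fold. From Clec2j to Clec7a, a stretch chosen with the values known, RefSeq lists 35 genes, of which 19 were measured. Of these, 2 were called higher and 0 lower after each interferon, and they were Clec2d and its next measured neighbour Cd69. Of all genes, 1.79% were called higher and 0.856% lower after IFNa, and 1.24% and 0.111% after IFNg. Because the stretch was chosen with these values known, its count is no test of the region. Cd69 read 37.3, 33.4 and 43.5 on untreated, 303, 560, 599 and 413 on IFNa, and 168 and 251 on IFNg arrays. All treated arrays were above all untreated ones. Cd69 rose by log2 3.58 ± 0.25 (adjusted p = 3.51e-05) after IFNa and 2.44 ± 0.29 (adjusted p = 0.00305) after IFNg. The IFNg call did not pass without IFNg replicate 2 (adjusted p = 0.0526).

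**Figure D2:**
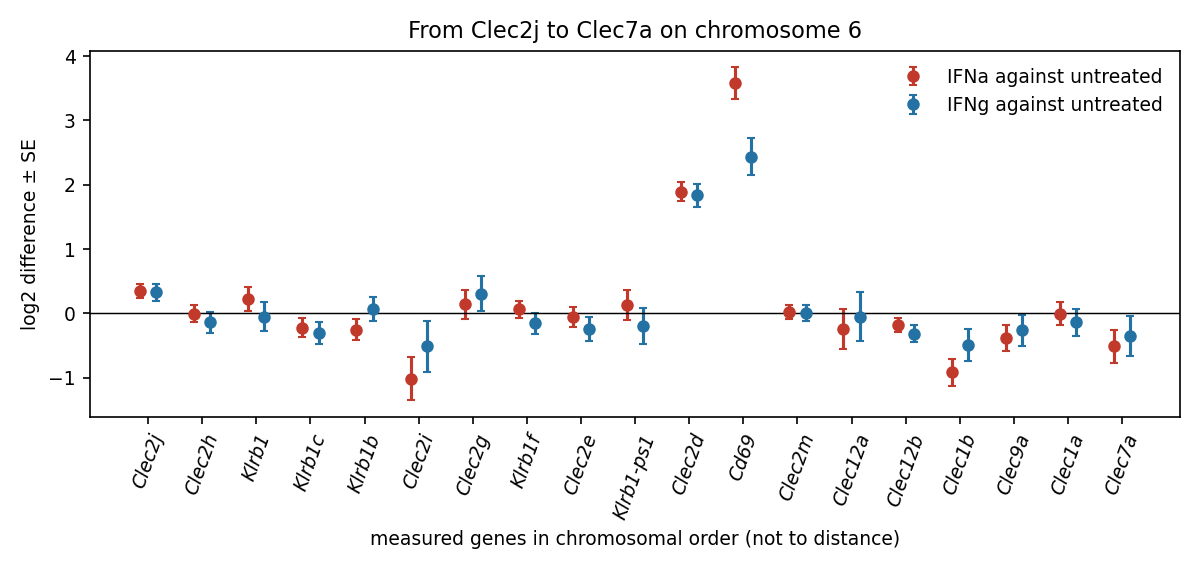
The vertical axis is the log2 difference from untreated with its SE, and the horizontal axis lists the 19 measured genes from Clec2j to Clec7a in RefSeq order, with no distances. Clec2d (1.89 and 1.83) and Cd69 (3.58 and 2.44) are neighbours, and none of the other genes plotted passed the test.

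In the Dectin-1 cluster, 0 of 6 members passed after either interferon (limma, with 1 lower and 0 higher at an unadjusted p under 0.05 in each). The lower member was Clec1b after IFNa and Clec12b after IFNg (-0.32, limma, unadjusted p = 0.0357, adjusted p = 0.55). Clec1b encodes CLEC-2, the platelet and myeloid receptor for podoplanin. It read 199, 261 and 223 on untreated, 131, 151, 132 and 79.0 on IFNa, and 163 and 159 on IFNg arrays, so no treated array reached an untreated one. The log2 difference was -0.92 ± 0.21 (adjusted p = 0.0553) after IFNa and -0.49 ± 0.25 (adjusted p = 0.669) after IFNg. Without the 2 narrow arrays it was -0.81 ± 0.11 (adjusted p = 0.00506) and -0.58 ± 0.12 (adjusted p = 0.0489), and both passed, where 3.23% of all genes were called lower after IFNa and 0.734% after IFNg. Without IFNa replicate 4 alone, Clec1b also passed as lower after IFNa (adjusted p = 0.0173). Platelet markers, 3 of 4 measured, summed to 7664 to 7959 in untreated, 5965 to 8257 in IFNa and 8172 to 8604 in IFNg arrays, almost all from Pf4, which read 5750 to 8388. Itga2b and Ppbp read 157 to 213 and 46.7 to 80.5, and no marker was at 0. The part of these in the Clec1b values was not tested.

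**Figure D3:**
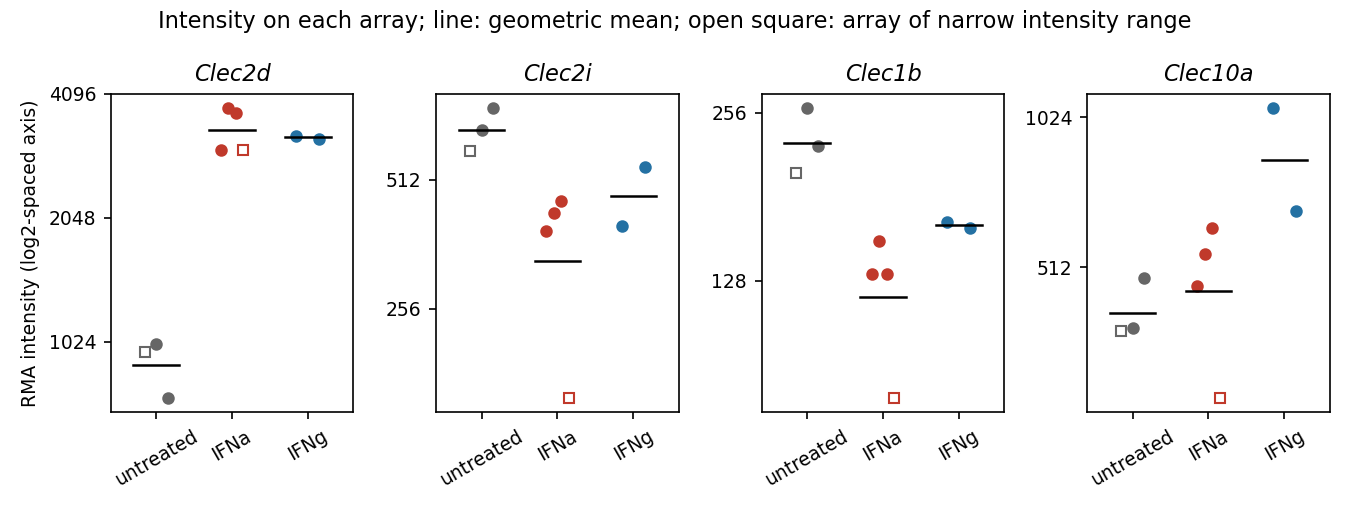
Each panel plots the RMA intensity of 1 gene on each array (log2-spaced axis) by group, with the geometric mean as a line and the narrow arrays as open squares. Clec2d separates from untreated on all 6 treated arrays, Clec2i and Clec1b are lower on all 6, and Clec10a is higher on both IFNg arrays.

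Clec7a encodes Dectin-1, the beta-glucan receptor. It read 1096, 1398 and 1546 on untreated, 1029, 1098, 856 and 785 on IFNa, and 689 and 1566 on IFNg arrays, and the groups overlapped. Its difference was -0.51 ± 0.26 (adjusted p = 0.521) after IFNa and -0.36 ± 0.31 (adjusted p = 0.772) after IFNg, and it changed sign without IFNg replicate 1 (0.23). Clec9a, the receptor by which conventional dendritic cells recognise dead cells, was dim, at 100.3, 67.4 and 68.5 on untreated, 70.04, 51.55, 50.4 and 67.4 on IFNa, and 54.5 and 76.2 on IFNg arrays. Its difference was -0.39 ± 0.20 (adjusted p = 0.535) and -0.26 ± 0.24 (adjusted p = 0.777), and without the narrow arrays -0.26 and -0.08. The dendritic cell markers, 7 of 7 measured with Clec9a among them, summed to 1711 to 2002, 1358 to 1786 and 1615 to 1816 in the 3 groups in that order. Most of each sum came from Cd209a, which read 856.3 to 1383. Clec12a, Clec12b and Clec1a, the first of which encodes an inhibitory receptor, ranged from 57.7 to 355.1 and lay between -0.25 and 0.00 after IFNa and between -0.32 and -0.05 after IFNg.

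The Dectin-2 cluster held 4 of the 7 members above the upper quartile, and 0 of its 9 members passed after either interferon (limma, with 0 at an unadjusted p under 0.05). Clec4e (Mincle), which senses mycobacterial glycolipid, read 2637, 4214 and 4617 on untreated, 5014, 3163, 3335 and 4967 on IFNa, and 3424 and 4377 on IFNg arrays. Its difference was 0.12 (95% interval -0.43 to 0.66) after IFNa and 0.06 (-0.59 to 0.71) after IFNg, and the groups overlapped. Without the 2 narrow arrays the values were -0.23 ± 0.20 and -0.19 ± 0.22. Clec4d (MCL), which pairs with Mincle, read 2410, 2869 and 3419, then 4145, 3085, 3180 and 3097, then 2859 and 3324 (0.22, adjusted p = 0.744, and 0.10, adjusted p = 0.867). Without the narrow arrays it differed by 0.13 and -0.02. Clec4a3 and Clec4a1 are of the DCIR group of receptors. Clec4a3 read 957.5, 1915 and 1829 on untreated, 1864, 2025, 2037 and 2196 on IFNa, and 1681 and 1813 on IFNg arrays (0.44, adjusted p = 0.516, and 0.22, adjusted p = 0.813). Clec4a1 read 709, 1328 and 1290, then 1637, 1218, 1375 and 1471, then 1049 and 1291 (0.41, adjusted p = 0.57, and 0.13, adjusted p = 0.887). In both, untreated replicate 1 was lowest of the 9 arrays. Without the 2 narrow arrays the Clec4a3 values were 0.08 ± 0.09 after IFNa and -0.10 ± 0.10 after IFNg, and those of Clec4a1 were 0.10 ± 0.14 and -0.17 ± 0.16, so the differences after IFNg changed sign. The other 5 members, among them Clec4n (Dectin-2), which senses fungal mannans, ranged from 16.4 to 184.4 and lay between -0.26 and 0.41 after IFNa and between -0.25 and 0.62 after IFNg. Close relatives in this cluster may share probes, whose sequences were not used here.

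**Figure D4:**
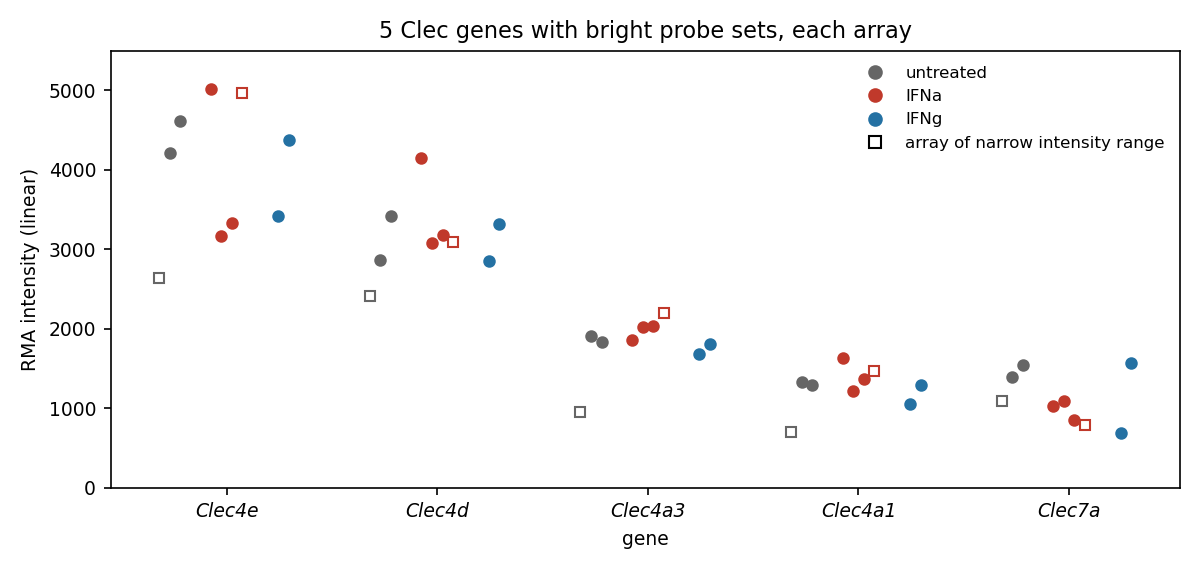
RMA intensity (linear axis) of Clec4e, Clec4d, Clec4a3, Clec7a and Clec4a1 on each array, coloured by group, with the narrow arrays as open squares. Treated arrays overlap with untreated arrays for each of the 5 genes, and untreated replicate 1 is lowest of the untreated arrays in all of them.

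Of the endocytic receptors, 0 of 3 passed (limma, unadjusted p under 0.05 in 0 after IFNa and 1 after IFNg). Clec10a (MGL1) binds galactose and N-acetylgalactosamine. It read 381, 387 and 487.5 on untreated, 469, 545, 614 and 281 on IFNa, and 1068 and 664 on IFNg arrays. Both IFNg arrays were above all other arrays, and the IFNa arrays overlapped with untreated ones. The difference was 0.14 ± 0.27 (adjusted p = 0.944) after IFNa and 1.02 ± 0.32 (2.03-fold, adjusted p = 0.318) after IFNg. Without the 2 narrow arrays the IFNg value was 0.96 ± 0.23 (adjusted p = 0.0981) and the IFNa value 0.31 ± 0.21 (adjusted p = 0.535). Its close relative Mgl2 read 284, 272 and 352 on untreated, 310, 419.6, 449.5 and 215 on IFNa, and 542 and 365 on IFNg arrays (0.57 after IFNg, adjusted p = 0.689). The small macrophage and monocyte list, 5 of 7 measured, summed to 5120 to 6346, 5281 to 6996 and 5701 to 6323 in the 3 groups, with no marker at 0. Most of each sum came from Retnla, which read 4416 to 6159. Clec4g, an adhesion receptor of sinusoidal endothelium, read 219, 185 and 171 on untreated, 159, 168, 157 and 187 on IFNa, and 183 and 171 on IFNg arrays (-0.19 and -0.11, adjusted p = 0.704 and 0.83, and -0.14 and -0.01 without the narrow arrays). Its other probe set read 67.2 to 80.6 and differed by 0.00 and -0.05. Clec4f, the Kupffer cell receptor, read 112.7 to 166.8 and differed by 0.00 and -0.15.

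The remaining 7 members did not pass after either interferon (limma, 0 at an unadjusted p under 0.05). Clec5a, a receptor that signals through DAP12 and binds flaviviruses, read 173.7 to 766.2 over the 9 arrays. Its differences of -0.31 ± 0.49 and 0.31 ± 0.59 had the largest SE of the 33 members. The soluble, matrix and other genes, 6 in all, included Clec3b (tetranectin), Clec11a, a growth factor for bone and blood progenitors, and Clec16a, a regulator of mitophagy. They ranged from 44.5 to 510.0 and lay between -0.22 and 0.12 after IFNa and between -0.28 and 0.11 after IFNg.

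Members with no overlap between treated and untreated arrays numbered 3 higher and 2 lower after IFNa, where 3.68% and 6.75% of all genes had none. After IFNg they numbered 3 higher and 4 lower, where 12.3% and 15.5% had none. After IFNa the higher ones were Clec2d, Clec2j and Clec4b2, and the lower ones Clec2i and Clec1b. After IFNg the higher ones were Clec2d, Clec2j and Clec10a, and the lower ones Clec2i, Clec1b, Clec12b and Clec3b.

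The direct comparison asked where the interferons differ. No member passed (0 higher and 0 lower in IFNa than IFNg, limma, with 0 and 1 at an unadjusted p under 0.05), where 0.44% and 0.537% of all genes were called. The arrays of the interferons did not overlap for 4 members higher and 3 lower in IFNa, beside 12.8% and 15.6% of all genes. Clec2d differed by 0.06 (95% interval -0.31 to 0.43, adjusted p = 0.904). Clec10a, the gene below 0.05 unadjusted, differed by -0.88 ± 0.30 (IFNa lower, adjusted p = 0.441). The median was 0.02, beside 0.03 over all genes. A miss of the threshold does not show equal responses, and the IFNg group has 2 arrays.

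The signalling chain behind these receptors was measured from a list of 36 adaptors, kinases, Card9 module genes and outputs, of which 32 had a value. After IFNa 1 was called higher and 0 lower, beside 1.79% and 0.856% of all genes, with a median of -0.19 beside -0.02 over all genes. At an unadjusted p under 0.05, 3 were higher and 6 lower, or 28.1% beside 11.9% of all genes. After IFNg 0 were called (limma, 2 higher and 0 lower at an unadjusted p under 0.05, or 6.25% beside 8.23%), with a median of -0.06 beside -0.06. The called gene was Il6, the inflammatory cytokine, a transcriptional output of this pathway among others. It read 65.4, 103.8 and 142.1 on untreated, 537, 381, 740.1 and 378 on IFNa, and 67.7 and 66.4 on IFNg arrays (2.31 ± 0.29, adjusted p = 0.0018 after IFNa). The IFNa arrays were above all others. In the direct comparison it was the 1 called gene (2.87, adjusted p = 0.00345), and the call did not pass without IFNg replicate 1 (0.0611) or replicate 2 (0.059). The adaptor genes Fcer1g and Tyrobp read 6456 to 9082 and 7487 to 8857. Syk differed by -0.21 and -0.01, and Card9 by -0.50 (adjusted p = 0.583) and 0.05.

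Lectin-fold proteins outside the Clec names, soluble ones as well as receptors, were covered by a list of 46 genes with 44 measured. The list held 2 called genes after each interferon, both higher, where 1.79% and 1.24% of all genes were called higher. The medians were 0.05 and -0.09, beside -0.02 and -0.06 over all genes. At an unadjusted p under 0.05, 2 were higher and 2 lower after IFNa, and 3 higher and 4 lower after IFNg. That is 9.09% and 15.9% of the list, beside 11.9% and 8.23% of all genes. The genes called after each interferon were Cd69, described above, and Klrk1. The product of Klrk1 is NKG2D, an activating receptor of NK and T cells. Klrk1 read 43.7, 37.8 and 46.3 on untreated, 122.4, 111.8, 129.1 and 112.5 on IFNa, and 78.35 and 85.1 on IFNg arrays. It rose by 1.48 ± 0.12 (adjusted p = 6.71e-05) and 0.94 ± 0.14 (adjusted p = 0.00909). The IFNg call did not pass without IFNg replicate 1 (0.107) or replicate 2 (0.146), or with only the 2 groups compared (0.071). The markers of T and NK cells, 5 of 5 measured, summed to 381 to 449.3, 346.5 to 504.8 and 347 to 363.2 in the 3 groups, and their part in this was not tested.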

How the data were processed

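Messenger RNA was measured on 9 arrays. The authors deposited RMA intensity values on a linear scale, 1 per probe set and array, made with Affymetrix Power Tools and RMA, per the submitters' processing notes. Versions, and which arrays were normalized together, are not given in the sources used here. Arrays give no molecule counts, and their number limits the precision.

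Gene names came from the platform table: of 24922 probe sets, 21425 had 1 symbol, 1399 several and 2098 none. The highest-mean probe set with 1 symbol stood for each of 19752 genes, and log2 was taken. A model of 3 group means was fitted with limma 3.58.1 in R 4.3.3 (6 residual degrees of freedom, 3.62 from the prior), with two-sided p-values adjusted by Benjamini-Hochberg over all genes and called at 0.05. Errors are SE. The model was tested on 1 simulated data set per comparison, with 200 of 19752 genes changed 2-fold. It recovered 69% after IFNa, 43.5% after IFNg and 48% between the interferons, with 4 of 142, 8 of 95 and 2 of 98 calls false. The simulated noise was normal and independent, with variances drawn from the model's own prior, and had no narrow arrays or tied values. These rates may therefore not hold for the real arrays. All 33 members matched RefSeq by Entrez identifier. RefSeq holds 34 Clec symbols; Clec2f was not analysed here. No intensity filter was applied.

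Array by array values are printed for called members, members with no overlap and a difference of at least 0.5, the 6 brightest untreated, Clec10a, Clec9a and members with several probe sets. Members singled out beside these were chosen after their values were seen. Members, lists and the chromosomal stretch were chosen with earlier results of these data known. The alternatives were other prior variances, leaving out the 30% or 50% dimmest genes, 2 normalizations, subsets of arrays, array weights, replicate blocks, every probe set and other thresholds. Figures used Python 3.11.15 with matplotlib 3.10.9 and pandas 2.3.3.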

Additional observations from a re-analysis of the deposited data

Results flagged for a closer look

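Among the 4 IFNa arrays, 5 of the 33 members had 1 array far from the others, by a test of the gap to the nearest array against the group's range. Chance alone gives about 1 in 20 where values are not tied, so this rate does not hold for members with tied values. In IFNa replicate 4, the array of narrow intensity range, Clec2i was low (158.8 against 388.3 to 456), and the dim probe sets of Clec14a (61.38 against 48.8 to 49.79) and Clec2e (47.53 against 39.32 to 40.22) were high. Clec4d was high in IFNa replicate 1 (4145 against 3085 to 3180). Clec12b was low in IFNa replicate 3 (80.67), where the other 3 arrays hold the identical value 83.7. With such a tie a gap of any size is flagged.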

How the results depend on the processing

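Clec2d passed in both comparisons with untreated under all 24 alternatives, between 1.76 and 1.99 after IFNa and between 1.67 and 1.92 after IFNg. No called value changed direction. Counts of Clec members called varied, and the cause was not tested. After IFNa, 1 was lower without the dimmest 30% of genes, and 2 without the 2 narrow arrays, where 1 was lower after IFNg. Array weights, whose planned estimate stopped before it converged (untreated replicate 2 took a weight of 140.6), called 4 higher and 9 lower after IFNa and 4 and 12 after IFNg. With them, 3414 of all 19752 genes were called higher and 5930 lower after IFNa, and 3854 and 6046 after IFNg. Weights estimated gene by gene, added after seeing the data, gave 2 and 3, and 4 and 5. Counts over all genes under these weights are not given here, so the member counts are no result about the members. In the direct comparison 0 members were called under every alternative. Leaving out each array in turn gave 0 to 1 member lower after IFNa. Clec10a after IFNg passed under both sets of weights and the block by title numbers (adjusted p = 0.000116, 0.00172 and 0.0342) and ranged from 0.68 to 1.36. The median of the members after IFNg was 0.10 without the dimmest 50% of genes, as was that of all genes (0.10). Clec1b after IFNa passed under 7 alternatives and Clec2i under 4. Differences of named Clec members that were not called changed sign 41 times over the alternatives.

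For the signalling list, the weights gave 6 higher and 13 lower after IFNa, 7 and 11 after IFNg, and 3 and 6 in the direct comparison. Estimated gene by gene they gave 5 and 10, 5 and 3, and 3 and 6. Without the narrow arrays 1 was lower after each interferon, and the direct comparison had 3 higher and 1 lower. Quantile normalization gave 1 lower there. For the lectins outside the Clec names, the weights gave 9 and 10, 5 and 15, and 4 and 2, and gene by gene 4 and 6, 4 and 8, and 4 and 2. Without the dimmest 30% of genes 1 was higher after each interferon, and without 50% it was 0. The 30% filter took Klrk1 out of the fit, and Cd69 still passed there after each interferon. The 50% filter took out Cd69 and Klrk1, so these lower counts do not come from calls that failed. After IFNg 1 was higher with only the 2 groups compared and with a 2-fold minimum. Without the narrow arrays 1 was higher in the direct comparison. Leaving out each array gave 1 to 2 signalling genes higher after IFNa, 0 to 1 after IFNg and 0 to 1 in the direct comparison, and for the other lectins 0 to 2 higher and 0 to 1 lower after IFNg.

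Over all genes the counts ran from 247 to 3414 higher and 26 to 5930 lower after IFNa (354 and 169 as reported), from 79 to 3854 and 1 to 6046 after IFNg (245 and 22), and from 21 to 614 and 21 to 1037 in the direct comparison (87 and 106). The highest counts came from array weights, and the lowest from a stricter threshold after IFNa and from leaving out IFNg replicate 1 elsewhere.

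Same-numbered arrays did not deviate together throughout: the correlation of 7 pairs by title numbers ran from -0.21 to 0.60 and that of 6 pairs by description numbers from -0.44 to 0.11, so the numbers were not taken as pairs. By titles, and among IFNa replicates 1 to 3 only, 3 of 3 untreated arrays correlated best with the IFNa array of their own number. For number 1 that correlation was itself negative (-0.21). With a replicate block by title numbers, 2 members were lower after IFNa and 2 higher after IFNg. In the signalling list 2 were higher after IFNa and 2 in the direct comparison. Of the other lectins 2 were lower after IFNg, and 1 was higher and 1 lower in the direct comparison. With a replicate block by description numbers, 1 member was lower after IFNa, and 2 signalling genes were higher after IFNa and in the direct comparison. Counts over all genes under the replicate blocks are not given here, so these counts are no result about the members or lists.

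Clec4b1 lay below the 5th percentile of its array (23.6 to 33.9) on every array except untreated replicate 3 (27.46 against 24.06). At this level, signal over background limits the size of any change.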

Other observations

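In the deposited table, 9557 of 24922 probe sets (38.3%) hold the same value on 2 or more arrays, as do 12 of the 33 Clec members (36.4%). Clec2m and Clec3a hold 1 value on 5 of the 9 arrays. How these ties arose is not given in the sources used here.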
